A study of Mus musculus with 2 samples.

Results

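The proteasome genes of tumour-infiltrating immune cells were measured in 1 gene expression library, prepared with 10x Genomics droplets. The cells came from B78ChOVA melanoma, grown in mice from tumour cells injected with Matrigel under the skin of the flank, taken at 16 days and cut alive into sections of about 160 µm. In ZipSeq, light places DNA barcodes on cells of chosen regions before the tissue is dissociated and sorted, so a second library (ADT) of the same cells holds the regional barcodes ZC1, ZC2 and ZC3. All groups below are cells of that single library, with no untreated or tumour-free group, and neither the number of tumours nor the strain and treatment of the mice is given in the sources used here. The genes were chosen by name: 50 of 31055 genes begin with Psma, Psmb, Psmc, Psmd, Psme, Psmf or Psmg and a digit. All 50 had at least 1 UMI (a count of 1 captured molecule) in the 4236 kept cells. By role they were 8 genes of the 20S alpha ring, 4 of the beta ring without catalytic activity, the constitutive catalytic subunits Psmb5, Psmb6 and Psmb7, the immunoproteasome subunits Psmb8, Psmb9 and Psmb10, the thymus-type subunit Psmb11, 6 ATPases and 11 other subunits of the 19S particle, 7 assembly chaperones, 4 genes of the 11S activator family, the PA200 activator Psme4, the inhibitor Psmf1, and Psmc3ip. Psmc3ip fits the name pattern but encodes a partner protein of meiotic recombination and no subunit.

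The proteasome breaks down proteins tagged with ubiquitin, and some of the peptides it leaves are loaded onto MHC class I molecules for display to CD8 T cells. Its core particle, the 20S, cuts proteins inside a barrel of alpha and beta rings, and its 19S cap binds, unfolds and feeds in the substrate. Interferon gamma is known to induce Psmb8, Psmb9 and Psmb10, which take the places of Psmb5, Psmb6 and Psmb7 when new cores are built and so form the immunoproteasome. It also induces Psme1 and Psme2, which form the 11S activator PA28. The values here are of mRNA, not of assembled particles.

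Psmb8 and Psmb9 lie in the MHC region of mouse chromosome 17 (mm10), beside the peptide transporter genes Tap1 and Tap2. Psmb9 spans chr17:34181987-34187764 on the minus strand, Tap1 chr17:34187553-34197225 on the plus strand, Psmb8 chr17:34197721-34201454 and Tap2 chr17:34203527-34216321, both on the plus strand. The annotated spans of Psmb9 and Tap1 overlap by 212 bases on opposite strands, and whether counting used the strand is not given in the sources used here. Psme1 (chr14:55578123-55581529, plus strand) and Psme2 (chr14:55587441-55591113, minus strand) are neighbours, 5911 bases apart. Psmb10 lies on chromosome 8, Psmb5 on chromosome 14, Psmb6 on chromosome 11 and Psmb7 on chromosome 2. RefSeq promoter windows (GRCm38.p6, 250 bases before to 50 bases after the transcription start) were found for 42 of the 50 genes. The windows of 3 genes are shown because these genes move apart in the comparisons below, and capitals mark the motif match in each.
Psme1, chr14:55578244-55578543, plus strand: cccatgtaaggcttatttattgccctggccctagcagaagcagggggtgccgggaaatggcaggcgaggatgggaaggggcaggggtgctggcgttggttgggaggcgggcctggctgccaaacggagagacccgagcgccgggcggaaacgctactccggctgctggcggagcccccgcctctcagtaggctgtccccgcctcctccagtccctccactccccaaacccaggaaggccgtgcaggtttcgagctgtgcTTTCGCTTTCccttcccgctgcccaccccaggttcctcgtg
Psmb5, chr14:54617946-54618245, minus strand: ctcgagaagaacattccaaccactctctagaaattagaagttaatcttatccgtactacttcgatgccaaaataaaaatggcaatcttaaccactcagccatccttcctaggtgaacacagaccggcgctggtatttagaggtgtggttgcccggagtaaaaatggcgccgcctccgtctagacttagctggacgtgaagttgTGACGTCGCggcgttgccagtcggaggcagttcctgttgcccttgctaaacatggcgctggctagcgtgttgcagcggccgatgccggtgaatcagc
Psmb6, chr11:70525107-70525406, plus strand: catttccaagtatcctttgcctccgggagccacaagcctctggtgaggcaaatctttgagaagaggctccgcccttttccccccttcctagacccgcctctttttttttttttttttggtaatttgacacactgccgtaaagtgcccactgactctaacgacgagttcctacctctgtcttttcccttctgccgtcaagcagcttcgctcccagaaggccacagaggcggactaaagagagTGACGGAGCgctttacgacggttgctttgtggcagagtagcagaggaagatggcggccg
The Psme1 window holds a match to the interferon-stimulated response element (GAAA, any 2 bases, GAAA), on the other strand, 9 bases after the start. That motif occurs on either strand in 3.44% of 32851 promoter windows. The windows of Psmb5 and Psmb6 hold TGACNNNGC, the letters of an antioxidant response element, 47 bases before the start in Psmb5 and 9 bases in Psmb6, a motif in 12.4% of all windows. The antioxidant motif was found in none of the 5 interferon-linked genes, too few to set against a motif in 12.4% of all windows. The standard 20S and 19S list holds 34 genes, Psma1 to Psma7, Psmb1 to Psmb7, Psmc1 to Psmc6 and the 14 Psmd genes, of which Psmd5, Psmd9 and Psmd10 are assembly chaperones. Among its 28 genes with a window, 5 held the antioxidant motif, 3 the interferon-stimulated motif and 11 the CCAAT box (the letters CCAAT, on either strand), which is in 37.4% of all windows.

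Kept cells had a median of 23132 gene UMIs (1027 to 215512), and all 4236 also had spatial barcode UMIs. Cells were placed in classes by gates on marker genes, so each name carries the ending -like and is a range of marker levels. The 12 classes with at least 20 cells were 2344 macrophage-like cells (C1q genes), 423 monocyte-like (Ly6c2, Ccr2), 219 CD8 T-like, 97 C1q+ Ly6c2+ intermediate, 96 cDC2-like, 89 CD4 T-like, 87 Treg-like, 70 NK-like, 41 melanoma-like, 38 mature DC-like (Ccr7, Fscn1), 33 cDC1-like and 29 nonclassical monocyte-like cells. Another 642 cells (15.16%) met no gate. Of the macrophage-like cells, 40 lay within 25% above the gate, as did 29 monocyte-like cells and 1 CD8 T-like cell. C1q genes, whose free RNA is abundant, stood at 16624.5 CPM (UMIs per 1000000 UMIs of the summed cells) in macrophage-like cells and at 79.02 to 244.6 CPM in the lymphocyte, DC and monocyte classes, against 10620 CPM in free RNA, the sum of 68497 barcodes with 10 to 100 UMIs. Macrophage-like cells were gated on C1q genes and other gates limit them, so this gap was partly fixed by the gates. In Leiden clusters, which group cells by expression without gates, C1q genes were at 2000 CPM in the mature DC cluster. They stood at 1426 CPM in the cDC1, 905.2 CPM in the cDC2 and 709.7 to 6207 CPM in the monocyte clusters. The CD8 T clusters had 226.6 to 364.4 CPM. Melanoma-like cells, found in a sort for immune cells, had 471.3 CPM of C1q genes. With 1 library, no test across samples could be made. The 95% intervals given in parentheses reflect counting error alone, not differences between tumours or between cells.

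The immunoproteasome share is the part that Psmb8, Psmb9 and Psmb10 take of the UMIs of the 6 catalytic subunit genes. It was highest in mature DC-like cells, at 83.71% (82.13 to 85.21), and lowest in melanoma-like cells, at 34.73% (33.33 to 36.15). cDC1-like cells, which take up antigen for CD8 T cells, came next at 77.81% (76.4 to 79.18), then Treg-like cells at 75.61% (74.08 to 77.09), whose interval overlaps it. CD4 T-like (72.88%), cDC2-like (72.73%), monocyte-like (71.53%), CD8 T-like (71.51%), intermediate (70.95%) and NK-like cells (69.31%) followed, and the interval of each overlapped that of its neighbour in this order. Macrophage-like cells stood at 63.37% (63.13 to 63.6) and nonclassical monocyte-like cells at 58.55% (52.48 to 64.43), whose intervals overlap. Free RNA had 63.68% (62.57 to 64.77), beside that of the macrophage-like class that supplies most cells. A 10x UMI count is not scaled by transcript length, but capture differs between genes, so the share is compared between cells and not read as a ratio of proteins.

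**Figure D1:**
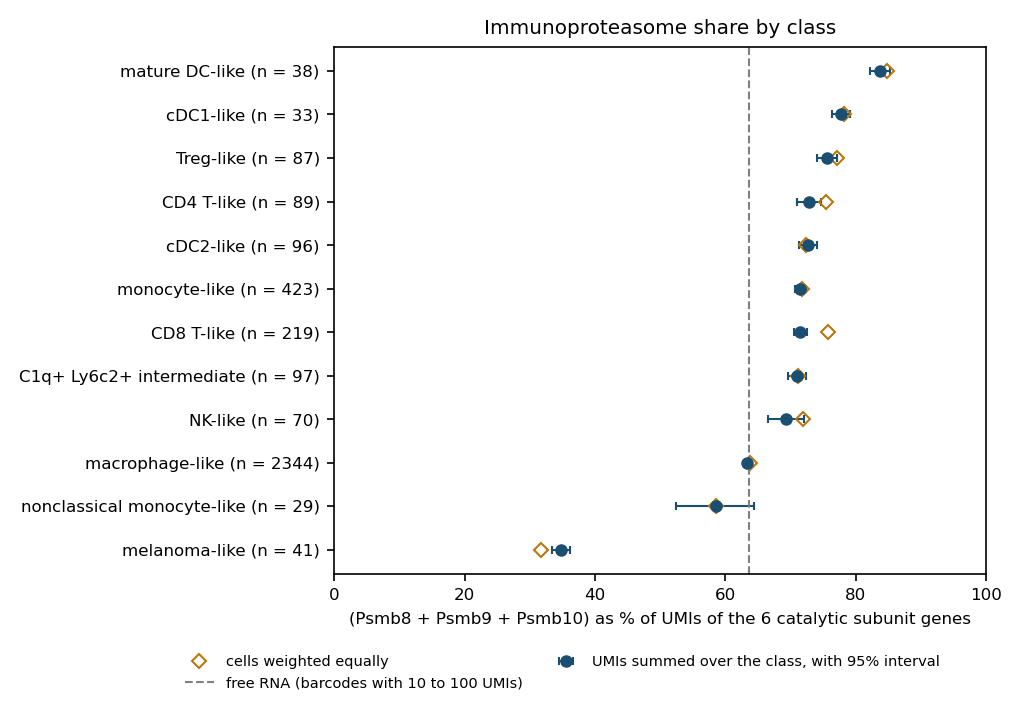
Immunoproteasome share (x axis, percent of the UMIs of the 6 catalytic subunit genes) by class, with 95% intervals for counting error, the mean with cells weighted equally (diamonds) and free RNA (dashed). Mature DC-like cells stand highest at 83.71% and melanoma-like cells lowest at 34.73%, and CD8 T-like cells are the class whose 2 values lie farthest apart among immune classes, 75.75% with cells weighted equally and 71.51% summed.

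The subunit pairs did not follow 1 order. Psmb8, which replaces the chymotrypsin-like Psmb5, outnumbered it 9.591 to 1 in mature DC-like cells, 5.818 to 1 in cDC1-like cells, 3.151 to 1 in macrophage-like cells and 0.405 to 1 in melanoma-like cells. Psmb9, which replaces the caspase-like Psmb6, outnumbered it 3.361 to 1 in mature DC-like and 2.781 to 1 in cDC1-like cells. Its ratio to Psmb6 was 0.8441 in macrophage-like, 0.5714 in nonclassical monocyte-like and 0.4784 in melanoma-like cells. Psmb10, which replaces the trypsin-like Psmb7, had its highest ratios in monocyte-like (2.812) and NK-like cells (2.772). cDC1-like cells, second for both other pairs, had a Psmb10 ratio of 1.054, and Psmb10 made up 51.31% (46.17 to 56.43) of its pair there, against 73.77% (71.96 to 75.52) in monocyte-like cells. Nonclassical monocyte-like cells combined a low Psmb9 share of its pair, 36.36% (25.7 to 48.12), with a Psmb10 share of 71.43% (58.65 to 82.11).

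**Figure D2:**
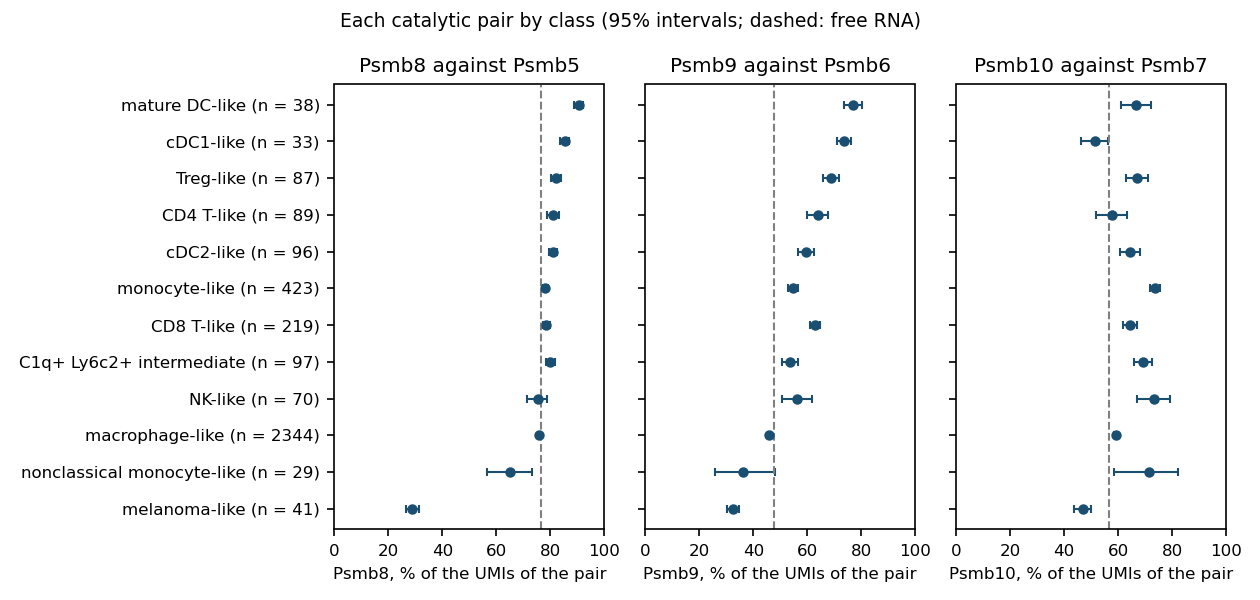
Share of each immunoproteasome subunit in the UMIs of its pair (x axes, percent) by class, with 95% intervals for counting error and free RNA dashed. The Psmb8 and Psmb9 panels fall from mature DC-like to melanoma-like cells in much the same order, while the Psmb10 panel peaks in monocyte-like cells at 73.77% and is 51.31% in cDC1-like cells.

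By level, Psmb8 differed 16.4-fold between its highest and lowest class, at 1911 CPM in mature DC-like and 116.6 CPM in melanoma-like cells. Psme2 differed 8.126-fold (1888 CPM in mature DC-like and 232.3 CPM in melanoma-like cells) and Psme1 4.98-fold (1535 and 308.2 CPM in the same classes). Psmb9 was highest in cDC1-like cells, at 906.1 CPM, and lowest at 139.8 CPM, from 28 UMIs, in nonclassical monocyte-like cells. Psmb10 differed 2.592-fold, with 363.4 CPM in monocyte-like and 140.2 CPM in melanoma-like cells. Of the constitutive subunits, Psmb5 differed 1.586-fold (316.1 CPM in cDC1-like and 199.3 CPM in mature DC-like cells) and Psmb6 1.588-fold (366.4 CPM in macrophage-like and 230.7 CPM in mature DC-like cells). Psmb7 differed 2.241-fold, but its lowest level, 89.86 CPM in nonclassical monocyte-like cells, rests on 18 UMIs. Of the 50 genes, 18 had at least 30 UMIs in every class, and their median spread was 1.962-fold, beside 3.025-fold for all 748 genes with as many UMIs.

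Across the 12 classes the CPM of Psmb8 and Psmb9 went together (Pearson r = 0.84, Spearman rho = 0.95), as did Psmb8 with Psme1 (r = 0.83, rho = 0.71) and Psmb8 with Psme2 (r = 0.80, rho = 0.78). Psmb8 with Psmb10 gave r = 0.66 and rho = 0.24. Psmb8 with its constitutive counterpart Psmb5 gave r = -0.08 and rho = 0.17. These are descriptions over 12 classes that share 1 library and its free RNA.

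The other 20S genes differed less between classes than Psmb8, Psmb9, Psme1 and Psme2. The 7 alpha ring genes Psma1 to Psma7, which form the gate of the barrel, differed 1.589-fold to 2.602-fold between their highest and lowest class, and Psmb1 to Psmb4 1.663-fold to 2.113-fold. Psma4 had the widest spread of these, with 415.7 CPM in cDC1-like and 159.8 CPM, from 32 UMIs, in nonclassical monocyte-like cells, close to the 2.592-fold of Psmb10. Psma2 was highest in CD8 T-like cells at 570.6 CPM, against 263.7 CPM in melanoma-like cells, the lowest class. Psma7 was highest in monocyte-like cells at 624.4 CPM and lowest in NK-like cells at 303.8 CPM. Psma8, a testis-type alpha subunit, had 109 UMIs over all 12 classes, at most 2.058 CPM in any of them. Psmb11, the thymus cortex subunit, had 3 UMIs in all.

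Melanoma-like cells had the highest level of each of the 6 ATPases of the 19S base, Psmc1 to Psmc6, at 130.1 to 194.7 CPM. Some leads lay within counting error. Psmc3 had 194.7 CPM (180.6 to 209.6) in melanoma-like and 192.6 CPM (167.6 to 220.3) in Treg-like cells. Psmc1 had 130.1 CPM (118.6 to 142.3) and 119.4 CPM (99.89 to 141.6) in the same order. Melanoma-like cells also led for the chaperones Psmg1 (53.07 CPM), Psmg2 (74.51 CPM) and Psmg3 (54.44 CPM), for Psme4 (70.39 CPM) and for Psmf1 (60.77 CPM). Of the other 19S subunits, melanoma-like cells led for Psmd2, Psmd3, Psmd7, Psmd11 and Psmd12. Psmd8, a lid subunit, was the only one of the 11 with at least 30 UMIs in every class, and differed 1.907-fold (357.7 CPM in cDC2-like and 187.6 CPM in NK-like cells). Psmd4, a ubiquitin receptor, stood at 182.7 CPM in Treg-like cells and at 134.8 CPM, from 27 UMIs, in nonclassical monocyte-like cells. Psmd14, the deubiquitinase of the lid, stood at 141.8 CPM in cDC1-like and 87.17 CPM in CD4 T-like cells, with 18 UMIs in its thinnest class. Psmg4, partner of Psmg3 in alpha ring assembly, differed from the other chaperones in being highest in mature DC-like cells, at 178.9 CPM, where Psmg1 had 7.847 CPM and Psmg2 12.55 CPM, each from under 10 UMIs. Psme3, the nuclear member of the 11S family, had its lowest level in mature DC-like cells, 26.68 CPM, where Psme1 and Psme2 were highest. That level rests on 17 UMIs, and its interval (15.54 to 42.72) overlaps that of monocyte-like cells, at 41.77 CPM (36.23 to 47.93).

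**Figure D3:**
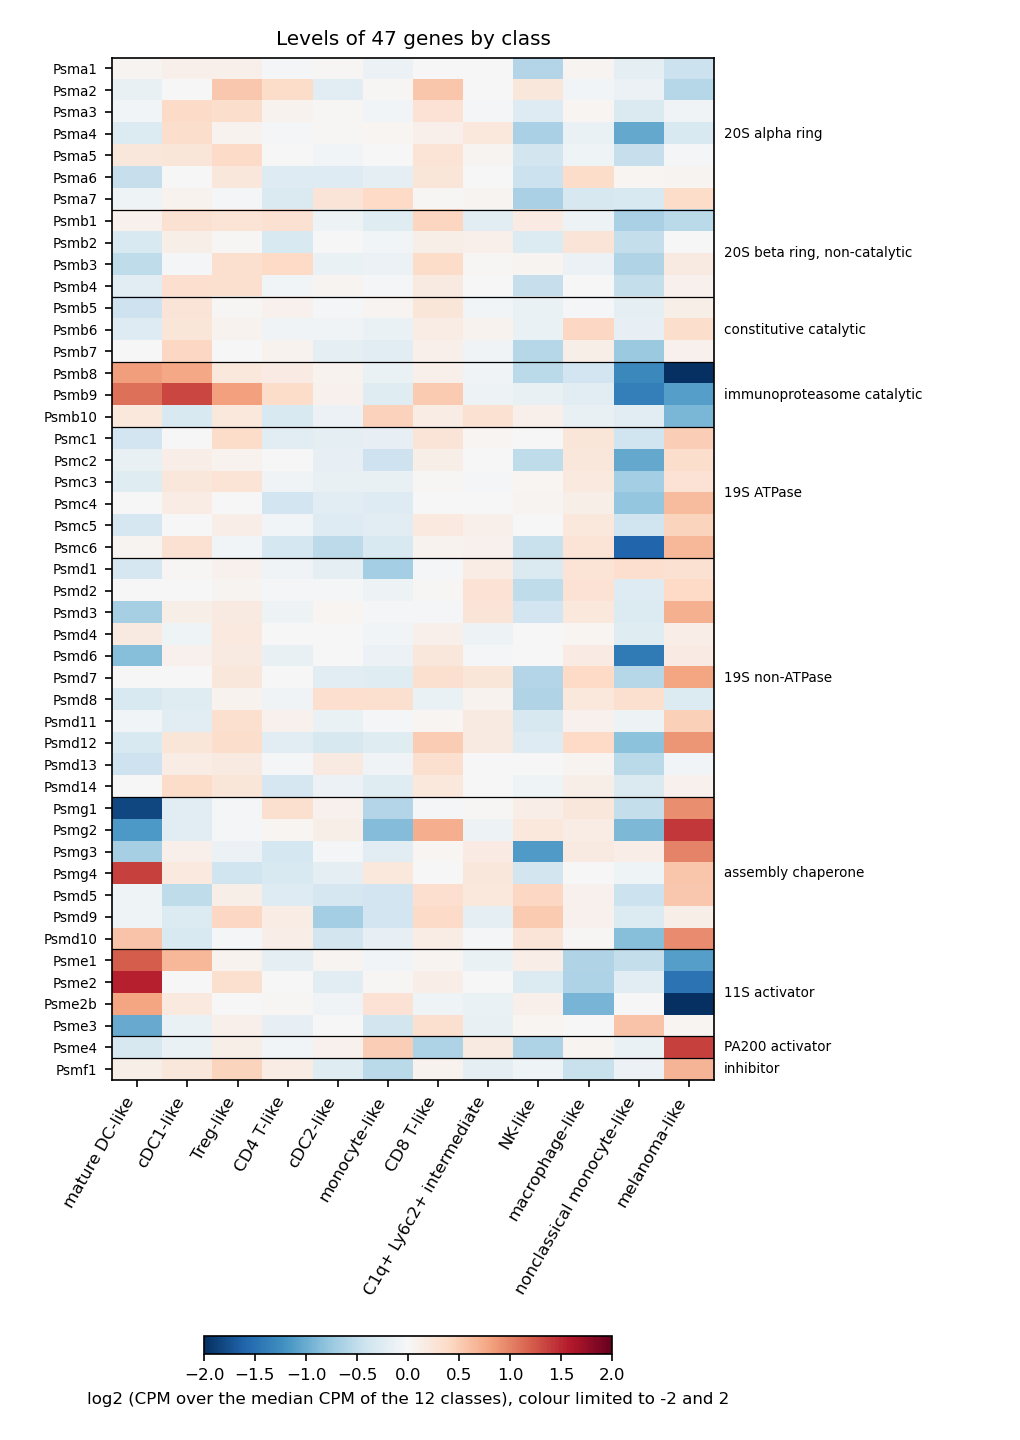
Levels of 47 of the 50 genes (rows, by role) in the 12 classes, as log2 of CPM over the median CPM of the classes, with red above and blue below the median. Psma8, Psmb11 and Psmc3ip, with few UMIs, are left out, and among the strongest colours are Psme2 and Psmg4 (red) and Psmg1 (blue) in mature DC-like cells and Psmb8 (blue) and Psmg2 and Psme4 (red) in melanoma-like cells.

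Macrophage-like cells, compared with monocyte-like cells, had a lower immunoproteasome share, 63.37%, against 71.53% in monocyte-like cells, a log2 odds ratio of -0.54 (-0.60 to -0.48). Psmb10 had a ratio of 0.65 (237.9 CPM in macrophage-like cells, 363.4 CPM in monocyte-like cells) and Psmb8 a ratio of 0.84 (822.1 and 978.5 CPM in the same order). Psmb9 was nearly equal (macrophage-like 309.2 CPM, monocyte-like 303.9 CPM). Psmb6 was higher in macrophage-like cells (366.4 CPM, against 250.6 CPM in monocyte-like cells, ratio 1.46). Psme1 and Psme2 were lower in macrophage-like cells, with ratios of 0.68 (0.66 to 0.71) and 0.64 (0.62 to 0.67).

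Of the 49 genes with enough UMIs to compare, 7 were more than 1.5-fold higher in macrophage-like cells and 5 lower, where 30.7% of 11374 genes were higher and 16.4% lower. The higher ones were Psmc2, Psmd1, Psmd7, Psmd12, Psmg1, Psmg2 and Psmc3ip, and the lower ones Psma7, Psma8, Psmb10, Psme2 and Psme2b. Psme2b is a near copy of Psme2, and reads could be split between them. The standard 20S and 19S genes had a median log2 ratio of 0.30, beside 0.18 for all genes. The list of partners and regulators holds genes without a Psm name, among them Sem1 and Adrm1, which encode 19S subunits. Of its genes, 2 of 9 compared were higher and 1 lower. The deubiquitinases Uchl5 (macrophage-like 68.2 CPM, monocyte-like 28.6 CPM) and Usp14 (92.92 and 41.36 CPM in the same order) were highest by ratio. Sem1 (macrophage-like 632.3 CPM, monocyte-like 1053 CPM) and Ngly1 were lowest. The type I interferon list was lower in macrophage-like cells for 11 of 12 genes, the stress list (heat shock and immediate early genes) for 9 of 10, and all 10 cell cycle genes were higher. Their part in the share was not tested.

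CD8 T-like cells had a higher share than macrophage-like cells (CD8 T-like 71.51%, macrophage-like 63.37%), a log2 odds ratio of 0.54 (0.47 to 0.61), which was 0.83 with cells weighted equally. Psmb9 (CD8 T-like 519 CPM, macrophage-like 309.2 CPM), Psme2 (707.4 and 421.9 CPM in the same order) and Psme1 (686.3 and 436.6 CPM) had ratios of 1.57 to 1.68. Psmb6 ran the other way, with 306.1 CPM for CD8 T-like and 366.4 CPM for macrophage-like cells. Of 49 genes, 5 were past 1.5-fold higher in CD8 T-like cells and 1 lower, where 23.9% of 10935 genes were higher and 27.8% lower. The 5 were Psma2, Psmb9, Psme1, Psme2 and Psme2b, and Psme4 was the lower one. Of the 12 class I antigen processing genes, 3 were higher and 3 lower, led by Tapbpl (CD8 T-like 117 CPM, macrophage-like 24.27 CPM) and Tap2 (213.2 and 93.81 CPM), with the chaperones Pdia3 and Canx lowest.

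Within CD8 T-like cells the share differed with depth. It was 81.59% (78.56 to 84.36) in the 73 shallowest cells, 77.23% (75.05 to 79.3) in the middle 73 and 68.82% (67.62 to 70) in the 73 deepest, with median UMIs of 4668, 8229 and 22639. Cell cycle genes summed to 60.22, 259.1 and 1866 CPM in the same order, the hypoxia list to 249.9, 391 and 536.1 CPM and the interferon gamma list to 1439, 1357 and 1086 CPM. In macrophage-like cells the range over depth was smaller, 65.27% in the shallowest and 62.29% in the deepest tertile, and in monocyte-like cells 71.1% and 71.02%. The parts of depth and of these lists in the CD8 T-like values were not tested.

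Treg-like cells stood above CD8 T-like cells, with a share of 75.61%, against 71.51% in CD8 T-like cells, a log2 odds ratio of 0.30 (0.17 to 0.44). With cells weighted equally it was 0.12. The shallowest and middle depth tertiles of CD8 T-like cells, at 81.59% and 77.23%, stood above the Treg-like share. Treg-like cells were not split by depth, and the part of depth was not tested. Psmb9 had 638.5 CPM in Treg-like cells, against 519 CPM in CD8 T-like cells, and Psmb5 at 269.5 and 315.1 CPM in that order. Psme4 was past 1.5-fold higher and Psmg2 past 1.5-fold lower in Treg-like cells, 2 of 48 genes, where 15.9% of 8059 genes were higher and 9.94% lower. The interferon gamma list, 12 genes that include Irf1, was higher in Treg-like cells for 8 genes, and the stress list was higher for 5 of 10 genes and lower for 2.

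Mature DC-like cells, which carry antigen to lymph nodes, had a share of 83.71%, against 72.73% in cDC2-like cells, a log2 odds ratio of 0.95 (0.76 to 1.14). Psme2 stood at 1888 CPM in mature DC-like and 554.7 CPM in cDC2-like cells, 3.404-fold (3.123 to 3.711). Psme1 was 2.236-fold higher, Psmb9 2.017-fold and Psmb8 1.703-fold, while Psmb10 was 1.256-fold higher and Psmb5 was at 199.3 CPM in mature DC-like and 262 CPM in cDC2-like cells. Psmg4 was 2.966-fold higher (178.9 CPM in mature DC-like, 60.31 CPM in cDC2-like cells), and its fellow chaperones Psmg1 to Psmg3 had ratios of 0.27 to 0.65. In all, 8 of 47 genes were past 1.5-fold higher and 8 lower, where 18.6% of 6361 genes were higher and 35.7% lower. Nfe2l1, the transcription factor that drives proteasome genes when the proteasome is blocked, was highest of the partners by ratio (62.77 CPM in mature DC-like, 26.61 CPM in cDC2-like cells). The 34 standard 20S and 19S genes had a median log2 ratio of -0.03, beside -0.25 for all genes. The part of Nfe2l1 in these levels was not tested. In class I antigen processing, 6 of 12 genes were higher and 4 lower, with Tapbpl (ratio 3.41) and Nlrc5 (2.96), a class I transactivator, highest and Pdia3 (0.39) and Calr (0.33) lowest.

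Melanoma-like cells differed from macrophage-like cells in the catalytic subunits, with a share of 34.73%, against 63.37% in macrophage-like cells, a log2 odds ratio of -1.70 (-1.79 to -1.61). Psmb8 had 116.6 CPM in melanoma-like and 822.1 CPM in macrophage-like cells, a ratio of 0.14 (0.13 to 0.16). Psmb9 had a ratio of 0.54, Psmb10 0.59 and Psme2 0.55, while Psmb5 (melanoma-like 287.9 CPM, macrophage-like 260.9 CPM), Psmb6 and Psmb7 were within 1.5-fold. Of 49 genes, 8 were past 1.5-fold higher in melanoma-like cells and 6 lower, where 39.5% of 11364 genes were higher and 23.4% lower. The higher ones were Psma7, Psmg1, Psmg2, Psmg3, Psmd10, Psme4, Psmf1 and Psmc3ip. Class I antigen processing was lower for 7 of 12 genes, and the class I heavy chain genes H2-D1 (114.1 CPM in melanoma-like, 2743 CPM in macrophage-like cells) and H2-K1 (110 and 2491 CPM in that order) were lowest. Of 6 lower genes, Psmb8, Psmb9, Psmb10, Psme2 and Psme2b are interferon-linked or a copy of such a gene, and Psma8 had 0 UMIs in melanoma-like and 95 UMIs in macrophage-like cells. With a 5% share of free RNA subtracted, the log2 odds ratio was -1.88.

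Macrophage-like cells were split by the interferon gamma list, counted in cells thinned to 5000 UMIs, and cells at or above the upper tertile (13 list UMIs) were compared with cells at or below the lower (4 list UMIs). The share was 68.03% (67.67 to 68.38) in 803 interferon-high and 57.74% (57.31 to 58.18) in 855 interferon-low cells, a log2 odds ratio of 0.64 (0.60 to 0.67). Psmb10 differed most, at 323.8 CPM in interferon-high and 161.9 CPM in interferon-low cells, 2.001-fold (1.929 to 2.075). Psme2 was 1.935-fold higher (562.7 CPM in interferon-high, 290.8 CPM in interferon-low cells), Psme1 1.672-fold, Psmb9 1.59-fold and Psmb8 1.432-fold. The constitutive Psmb5 had a ratio of 1.08, Psmb6 of 0.95 and Psmb7 of 0.98. Over cells, the share had a median of 68.61% (from 34.78% to 93.1%) in interferon-high and 58.33% (from 5.128% to 89.06%) in interferon-low cells, so the ranges overlap widely.

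Past 1.5-fold were 5 of 49 genes, all higher in interferon-high cells (Psmb9, Psmb10, Psme1, Psme2 and Psme2b), where 5.16% of 11486 genes were higher and 5.34% lower. None of the 34 standard 20S and 19S genes passed 1.5-fold, and their median log2 ratio was 0.08, beside -0.003 for all genes. Class I antigen processing was higher for 5 of 12 genes, led by Tapbpl (35.61 CPM in interferon-high, 12.96 CPM in interferon-low cells) and Tapbp (312.6 and 151.3 CPM in that order). Pomp, the chaperone that matures the core, had the highest ratio of the partners, 1.39, within 1.5-fold. The hypoxia list was lower in interferon-high cells for 10 of 12 genes, and the type I interferon list higher for 12 of 12. When the same cells were split by the type I interferon list, the share was 65.56% in type I-high and 61.45% in type I-low cells, a log2 odds ratio of 0.26. Psmb10 (ratio 1.34), Psmb9 (1.30), Psme2 (1.30), Psme1 (1.27) and Psmb8 (1.16) led again, but 0 of 49 genes passed 1.5-fold, where 4.84% of 11572 genes were higher and 1.93% lower. The 2 splits share cells, and 10 of 12 interferon gamma genes were also higher in type I-high cells.

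**Figure D4:**
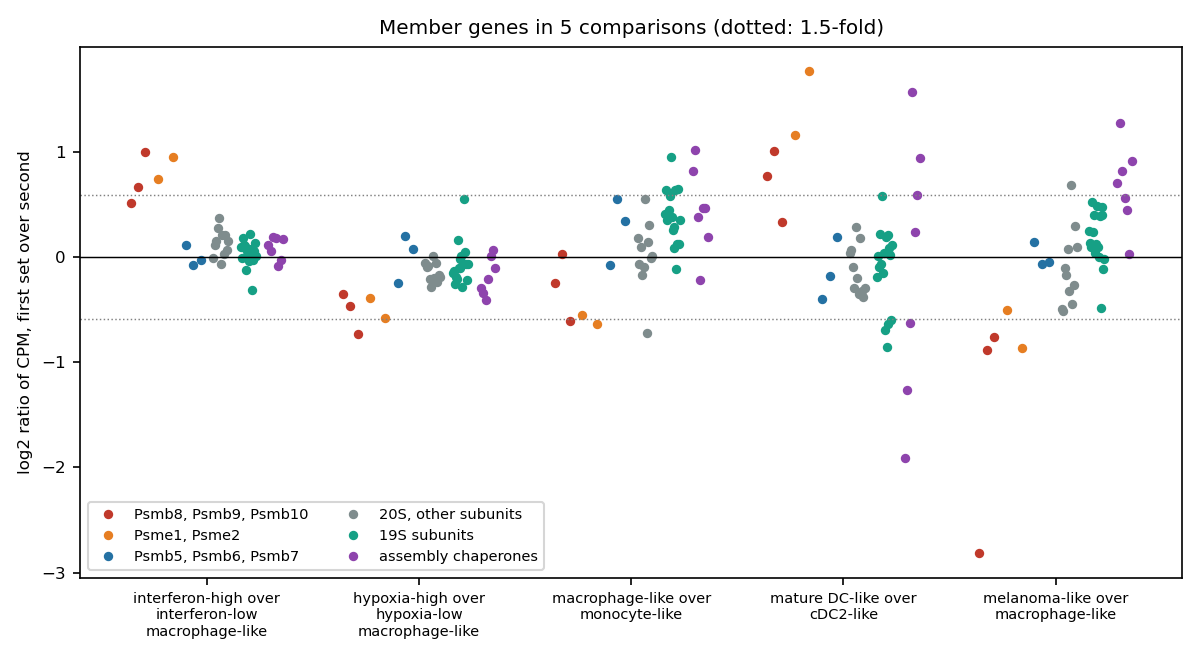
Log2 ratio of CPM (y axis, first set over second) in 5 comparisons for the compared genes of 6 roles (colours), with dotted lines at 1.5-fold. Psmb8, Psmb9, Psmb10, Psme1 and Psme2 lie above 0 in interferon-high and mature DC-like cells and below 0 in hypoxia-high and melanoma-like cells, and the lowest point is Psmb8 in melanoma-like cells, a ratio of 0.14.

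The macrophage-like Leiden clusters, built without Psm genes and the interferon lists, ranged from 51.3% to 72.96% in share. Interferon-linked genes off those lists, such as Cxcl10 and Ifit3b, were not excluded, so the clusters are not independent of interferon state. The lowest was cluster 7, 406 cells led by Ifnb1, Adm, Nos2, Mmp12 and Hspa1b, at 51.3% (50.53 to 52.06). It had 627.2 CPM of the glucose transporter Slc2a1, against a range of 35.67 to 108 CPM among the other clusters. Psmb8 was at 505.4 CPM, Psmb10 at 99.72 CPM and Psmb5 at 154.3 CPM in cluster 7, each the lowest of the 8 clusters, while Psmb6, at 444.5 CPM, was the highest. The highest shares were in cluster 12 (74 cells led by Saa3, Cxcl13, Cbr2 and Folr2), at 72.96% (71.43 to 74.45), and cluster 4 (139 cells led by Cxcl10, Acod1 and Ifit3b), at 69.66% (68.78 to 70.54). Cluster 4 had the most Cxcl9, an interferon gamma target, at 4670 CPM, but cluster 12 had 948 CPM, below clusters 2, 3 and 5, whose shares were 61.82%, 64.45% and 64.58%. Ifit3, of the type I interferon list, ran the other way. It had 104.2 CPM in cluster 12, against 22.39, 18.84 and 31.04 CPM in clusters 2, 3 and 5. Cluster 7, with the lowest share, had 110.5 CPM of Ifit3 and cluster 4 had 355.3 CPM. These are descriptions of clusters made from the same cells.

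A hypoxia list of 12 genes was added after the low share of cluster 7 was seen, and macrophage-like cells were split by it in the same way. Because many cells held equal counts, its groups are unequal: 1103 hypoxia-low (at most 2 list UMIs), 287 middle and 887 hypoxia-high cells (at least 4). The share was 58.56% (58.15 to 58.98) in 887 hypoxia-high and 66.26% (65.94 to 66.58) in 1103 hypoxia-low cells, a log2 odds ratio of -0.47 (-0.51 to -0.44). Psmb10 stood at 171 CPM in hypoxia-high and 284.4 CPM in hypoxia-low cells (ratio 0.60), Psme2 at 327.4 and 489.7 CPM (0.67), Psmb9 at 253.2 and 349.6 CPM (0.72) and Psmb8 at 706 and 902.7 CPM (0.78). Psmb5 was lower too (233.8 CPM in hypoxia-high, 276.7 CPM in hypoxia-low cells), but Psmb6 was higher, at 397.1 and 345.3 CPM in that order. Psmd8, a 19S lid subunit, had the highest ratio of all compared genes of the proteasome, 1.47 (409.2 CPM in hypoxia-high, 278.4 CPM in hypoxia-low cells). Psmb10 alone of 49 genes passed 1.5-fold, where 5.9% of 11748 genes were higher and 5.24% lower. The interferon gamma list was lower in hypoxia-high cells for 9 of 12 genes. The type I interferon list was higher for 3 of 12, led by Rsad2 (87.9 CPM in hypoxia-high, 28.96 CPM in hypoxia-low cells) and Ifit1 (76.76 and 32.56 CPM in that order), and lower for 3. The heat shock genes Hspa1a (248.2 CPM in hypoxia-high, 31.33 CPM in hypoxia-low cells) and Hspa1b were the highest of the stress list.

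Because the lists move in opposite ways (Spearman rho = -0.33 over 2277 cells, a description), the share was read within the low, middle and high groups of both. In interferon-low cells it was 54.78% (54.18 to 55.38) in 484 hypoxia-high and 61.54% (60.83 to 62.25) in 292 hypoxia-low cells. In interferon-high cells it was 64.58% (63.79 to 65.36) in 187 hypoxia-high and 69.2% (68.77 to 69.64) in 509 hypoxia-low cells. In each hypoxia group the share was higher in interferon-high than in interferon-low cells, and in each interferon group it was lower in hypoxia-high than in hypoxia-low cells. Each group is a range of list counts, so cells within a group can still differ in both lists. The parts of the lists in the share were not tested. Psmb10 ranged from 133.5 CPM in hypoxia-high, interferon-low cells to 349.9 CPM in hypoxia-low, interferon-high cells, and Psmb7 from 155.9 to 172.9 CPM over all 9 combinations. Over all macrophage-like cells with at least 20 catalytic UMIs (2166 of 2344), the share of single cells had a median of 63.79%, with 48.15% at the 10th and 75.61% at the 90th percentile, and with an SD of 11.34 points, where counting alone would give 6.383 points.

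**Figure D5:**
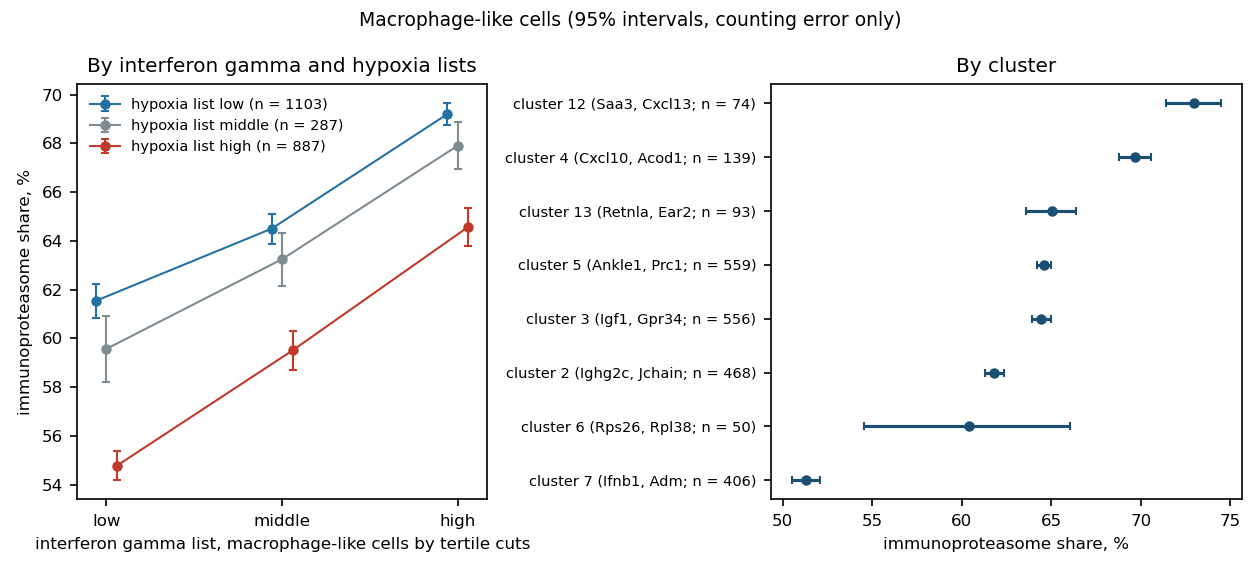
Immunoproteasome share (percent, 95% intervals for counting error) in macrophage-like cells by low, middle and high groups of the interferon gamma list (left, x axis; 855, 619 and 803 cells) and the hypoxia list (colours; 1103, 287 and 887 cells), and by Leiden cluster (right, with the 2 leading genes). Each line climbs from the interferon-low to the interferon-high group, the hypoxia-high line lies lowest in each, and cluster 7 has the lowest share of the 8 clusters, 51.3%.

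Cycling macrophage-like cells (at least 3 cell cycle UMIs in 5000) and non-cycling ones (0 UMIs) had nearly the same share, 63.71% in 773 cycling and 62.91% in 939 non-cycling cells. The 34 standard 20S and 19S genes had a median log2 ratio of 0.21, beside 0.05 for all genes, and summed to 7420 CPM in cycling and 6643 CPM in non-cycling cells. The 6 ATPases of the 19S had a median log2 ratio of 0.34. Of 49 genes, 2 passed 1.5-fold, Psmg2 (38.45 CPM in cycling, 22.79 CPM in non-cycling cells) and Psmc3ip (21.81 and 6.674 CPM in that order), where 11.5% of 11576 genes were higher and 8.41% lower. The subunits of the immunoproteasome split: Psmb9 (ratio 1.28) and Psmb8 (1.146) were higher and Psmb10 (0.89) lower, as were Psme1 (0.91) and Psme2 (0.88). Cycling cells were deeper, with a median of 39914 UMIs, against 25202 UMIs in non-cycling cells, and without thinning the median log2 ratio was 0.33. The part of depth was not tested.

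CD8 T-like cells were split by a list of 8 checkpoint genes that includes Pdcd1, Havcr2 and Lag3, in cells thinned to 2000 UMIs. The standard 20S and 19S genes had a median log2 ratio of 0.14 in 81 checkpoint-high over 88 checkpoint-low cells, beside 0.02 for all genes. This value moved from 0.067 with at most 5% mitochondrial UMIs to 0.46 without thinning, and was 0.38 with cells weighted equally and 0.29 with doubled gate thresholds. The share was 70.65% (69.16 to 72.11) in checkpoint-high and 73.02% (71.3 to 74.7) in checkpoint-low cells. Psmb6 was higher in checkpoint-high cells (352.9 CPM, against 249.6 CPM in checkpoint-low cells, ratio 1.41), as was Psmb9 (571.8 and 460.8 CPM, ratio 1.24). Of 48 genes, 2 were past 1.5-fold higher, Psmd5 and Psmc3ip, and Psmg1 was lower, each from 12 to 41 UMIs a side, where 11% of 6595 genes were higher and 11.6% lower. Cell cycle genes were lower in checkpoint-high cells for 9 of 10, the type I interferon list for 4 of 5 compared, the stress list for 4 of 10 and the interferon gamma list for 3 of 11, while the hypoxia list was higher for 3 of 7. Median depth was 11930 UMIs in checkpoint-high and 6177 UMIs in checkpoint-low cells. Their part in these values was not tested.

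By region, the first barcode rule (at least 10 spatial UMIs and 2 times the next) gave only 5 macrophage-like cells for ZC1, against 1445 for ZC3, and their share of 52.87% (46.4 to 59.27) in ZC1 and 62.76% in ZC3 rests on those 5 cells, 1 of which held 40.43% of the UMIs. By that rule 2 of 46 genes were past 1.5-fold higher in ZC1 and 15 lower, where 13.5% of 5140 genes were higher and 25.1% lower. A rule added later, which divides each barcode by its share in free droplets, gave 232 ZC1, 236 ZC2 and 684 ZC3 cells. With it the share was 63.41% (62.58 to 64.23) in ZC1 and 63.05% (62.64 to 63.45) in ZC3 cells, a log2 odds ratio of 0.02 (-0.03 to 0.08). ZC2 cells had 65.34% (64.57 to 66.1), against 63.05% in ZC3 cells, a log2 odds ratio of 0.14 (0.09 to 0.20). Standard 20S and 19S genes were lower by a median of -0.21 on the log2 scale in ZC1 and -0.16 in ZC2 cells, each over ZC3 cells, beside -0.03 and -0.01 for all genes. Psmb5 stood at 234.9 CPM in ZC1, 257.7 CPM in ZC2 and 277.1 CPM in ZC3 cells, and Psme2 at 429.1, 448.4 and 408.8 CPM in the same order. None of 49 genes passed 1.5-fold in either comparison, where 7.51% of 10836 genes were higher and 5.36% lower in ZC1 over ZC3, and 5.89% of 10813 genes were higher and 4.41% lower in ZC2 over ZC3. Both comparisons share the ZC3 cells. Cell cycle genes were lower in ZC1 than in ZC3 cells for 9 of 10. The stress list was higher in ZC1 than in ZC3 cells for 5 of 10 genes, led by Egr1 (85.41 CPM in ZC1, 46.25 CPM in ZC3) and Zfp36 (346.7 and 200 CPM in that order), and the type I interferon list was lower for 3 of 12. In ZC2 over ZC3 cells the type I interferon list was lower for 9 of 12, with Cmpk2 (5.714 CPM in ZC2, 15.44 CPM in ZC3) and Mx1 (8.57 and 17.82 CPM) lowest, and the stress genes Hspa1a and Hspa1b were lower. The interferon gamma list had 0 of 12 genes past 1.5-fold in either. The part of these lists in the regional values was not tested. Median depth was 25457.5 UMIs in ZC1, 26932 UMIs in ZC2 and 33576 UMIs in ZC3 cells, which cannot be told apart from region here. The region behind each barcode is not given in the sources used here.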

How the data were processed

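Gene expression and spatial barcodes of the same cells were counted in 1 matrix. The deposited values are raw UMI counts, whole numbers per gene and droplet, not normalized and not filtered for cells, per the file headers and values. The submitters' processing notes name Cell Ranger 4.0.0 and mm10. Cells were kept with at least 1000 gene UMIs, 500 genes and at most 10% mitochondrial UMIs. Classes were set by 14 gates on marker UMIs per 10000, in a fixed order, with limits on C1q and CD3 genes in lymphoid and myeloid gates that drop droplets of both lineages; no doublet caller was run. The members and lists were chosen with earlier results of these data known. Counts were summed per set and given as CPM with exact Poisson intervals, shares with Clopper-Pearson intervals and ratios with exact conditional intervals, at 95%, which cover counting error only. Genes entered a comparison when both sets together held 30 UMIs or more and the smaller was expected to hold 3. A fold of 1.5 was counted. All 50 members are accounted for. Of other lists, the genes named are the 2 highest and 2 lowest by ratio, or fewer of these. The Leiden clusters' genes and Irf1, Slc2a1, Cxcl9, Ifit3, Pdcd1, Havcr2 and Lag3 describe lists or clusters. The hypoxia and stress lists, the comparisons of mature DC-like, melanoma-like and Treg-like cells and the depth tertiles were added after the data were seen. A gene and a motif that were examined are not reported here. The code was tested on simulated data. Alternatives changed the cell filters, gates, clusters, weighting, free RNA, thinning and barcode rule. Annotated pseudogene copies of Psmb5, Psmb6 and Psmb7 are not among the features, so reads that match both may be lost. Scripts ran in Python 3.11.15 with scanpy 1.11.5, igraph 0.11.9, matplotlib 3.10.9, pandas 2.3.3, scipy 1.17.1 and numpy 2.4.6.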

Additional observations from a re-analysis of the deposited data

How the results depend on the processing

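With 1 library there are no replicates to leave out. No paired analysis was possible because the result comes from no test and the 2 samples are libraries of the same cells. Depth limits the small sets: nonclassical monocyte-like cells had 200305 UMIs in all, so Psmb9 rests on 28 UMIs there. The direction of the 10 comparisons of shares or medians held under the alternatives run, with 1 exception: ZC1 over ZC3, -0.59 on 5 cells, was 0.022 under the relative barcode rule, where Psme2 also turned to 0.070. That comparison was -0.19 with Leiden clusters, -0.17 with cells weighted equally and -1.34 with the barcode at 5 times the next, from 1 ZC1 cell. With Leiden clusters macrophage-like over monocyte-like cells gave -0.42 and mature DC-like over cDC2-like cells 0.65. With cells weighted equally CD8 T-like over macrophage-like cells gave 0.83, interferon-high over interferon-low 0.68, hypoxia-high over hypoxia-low -0.52, melanoma-like over macrophage-like -1.92 and Treg-like over CD8 T-like 0.12. With free RNA subtracted the interferon split gave 0.67 and melanoma-like over macrophage-like -1.88, which was -1.58 with at most 5% mitochondrial UMIs (11 melanoma-like cells). The interferon split gave 0.26 with the type I interferon list and 0.69 without thinning, the hypoxia split -0.58, the checkpoint split 0.46 and the cycling split 0.33 without thinning. The cause was not tested. Of the class shares, 67 of 77 values under alternatives stayed within the counting interval and 10 moved out of it, as did 105 of 616 single gene ratios. Mature DC-like cells had the highest share in all 8 settings, and melanoma-like cells the lowest in 7, the other leaving them under 20 cells.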

Other observations

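The B-like and pDC-like classes were too small to be ranked. In 17 B-like cells the immunoproteasome share was 79.22% (71.95 to 85.33), from 122 immunoproteasome and 32 constitutive UMIs, with a Psmb10 to Psmb7 ratio of 4.4. In 11 pDC-like cells it was 71.09% (65.12 to 76.57), with a Psmb10 to Psmb7 ratio of 3.429, but the monocyte list, at 6127.7 CPM, stood above the pDC list, at 4360.9 CPM, in those cells.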
